A study of Mus musculus with 4 samples.

Results

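The molecular chaperones of the heat shock protein (Hsp), J protein (Dnaj) and CCT families were examined in mouse regulatory T cells, the CD4+ lymphocytes that depend on the transcription factor Foxp3 and restrain immune responses. Members were taken by gene name: every row whose symbol named an HSP90, HSP70, HSP110 or HSP60 and HSP10 gene, a small heat shock protein, a J protein of the A, B or C class, or a CCT subunit, with pseudogene symbols left out. The rule found 82 genes of 50600 in the tables, 81 of them annotated as protein coding and Cct6a as a processed transcript. The rule reads gene names and no measured value.

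RNA was sequenced from 4 replicate biosamples of primary regulatory T cells of the C57BL/6NJ strain, all in 1 group, with no other cell type or treatment beside them. The labels record 1 shared donor for the 4 biosamples and leave age as unknown and sex as not collected. They link a CD4+ T cell differentiation protocol, and the names of the aligned files in the headers include activated and 48h. The assay is labelled as total RNA, while the linked library protocol is named for polyA+ RNA. Nothing in them states which animals or cultures the biosamples came from, so the spread between libraries may be partly technical and partly between animals. Depth ran from 43821767 counts in replicate 1 to 73819468 in replicate 3, with 58696937 in replicate 2 and 52005209 in replicate 4. Levels are given in TPM , which divides each count by the gene's exon length and sets every library's sum to 1000000.

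The labelled cell type was checked against marker genes. Every library held all 5 T cell and all 5 regulatory T cell markers at 1 TPM or more, with summed levels of 2679 to 2794 and 2771 to 2843. None of 5 myeloid, 4 CD8 and natural killer, 5 erythroid and platelet or 5 epithelial and stromal markers reached that level in all 4, and Lyz2, S100a8, S100a9, Ncr1, Hbb-bs, Ppbp and Krt8 had 0 counts throughout. Of 4 B cell markers, only Cd79b did, at 3.11 ± 0.47 (SD, n = 4). The libraries stood apart in sex-linked genes: from the first replicate to the fourth, Xist stood at 172, 145, 0.255 and 0.367 TPM and the Y-linked Ddx3y at 0.152, 0.0781, 45.1 and 45.0. By these genes the 4 libraries did not all come from 1 animal, although the labels record 1 donor. No test used this split. Values are given below for each library for the members the results turn on, and as mean and SD for the others.

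Chaperones bind proteins that are not yet folded or have come unfolded and keep them from clumping. HSP70 proteins clasp short greasy stretches in cycles driven by ATP, J proteins bring clients to them and trigger ATP hydrolysis, and HSP110 proteins let the spent nucleotide go. HSP90 completes the folding of kinases and receptors, among them the T cell kinase Lck, while the ring-shaped chaperonins, CCT in the cytosol and HSP60 with HSP10 in mitochondria, enclose a client in a chamber. Cells keep constitutive members for growth and inducible ones for heat and other stress.

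Most of the family was transcribed, over a wide range of levels. Of the 82 members, 62 reached 1 TPM or more in each of the 4 libraries, called expressed here, which is 75.6% against 22.9% of all genes and 47.2% of protein-coding genes. A TPM of at least 100 in all 4 was reached by 26 members, or 31.7%, against 3.98% of all genes and 9.09% of protein-coding genes. The members together held 2.06%, 2.10%, 2.02% and 2.09% of all TPM in replicates 1 to 4, a mean of 2.07% ± 0.04 (SD, n = 4). That share was carried by few genes: Hsp90ab1 alone made up 31.8% of the members' TPM and the leading 10 members 73.6%. In RNA from a whole population, fewer cells with a transcript and less of it per cell cannot be told apart.

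**Figure D1:**
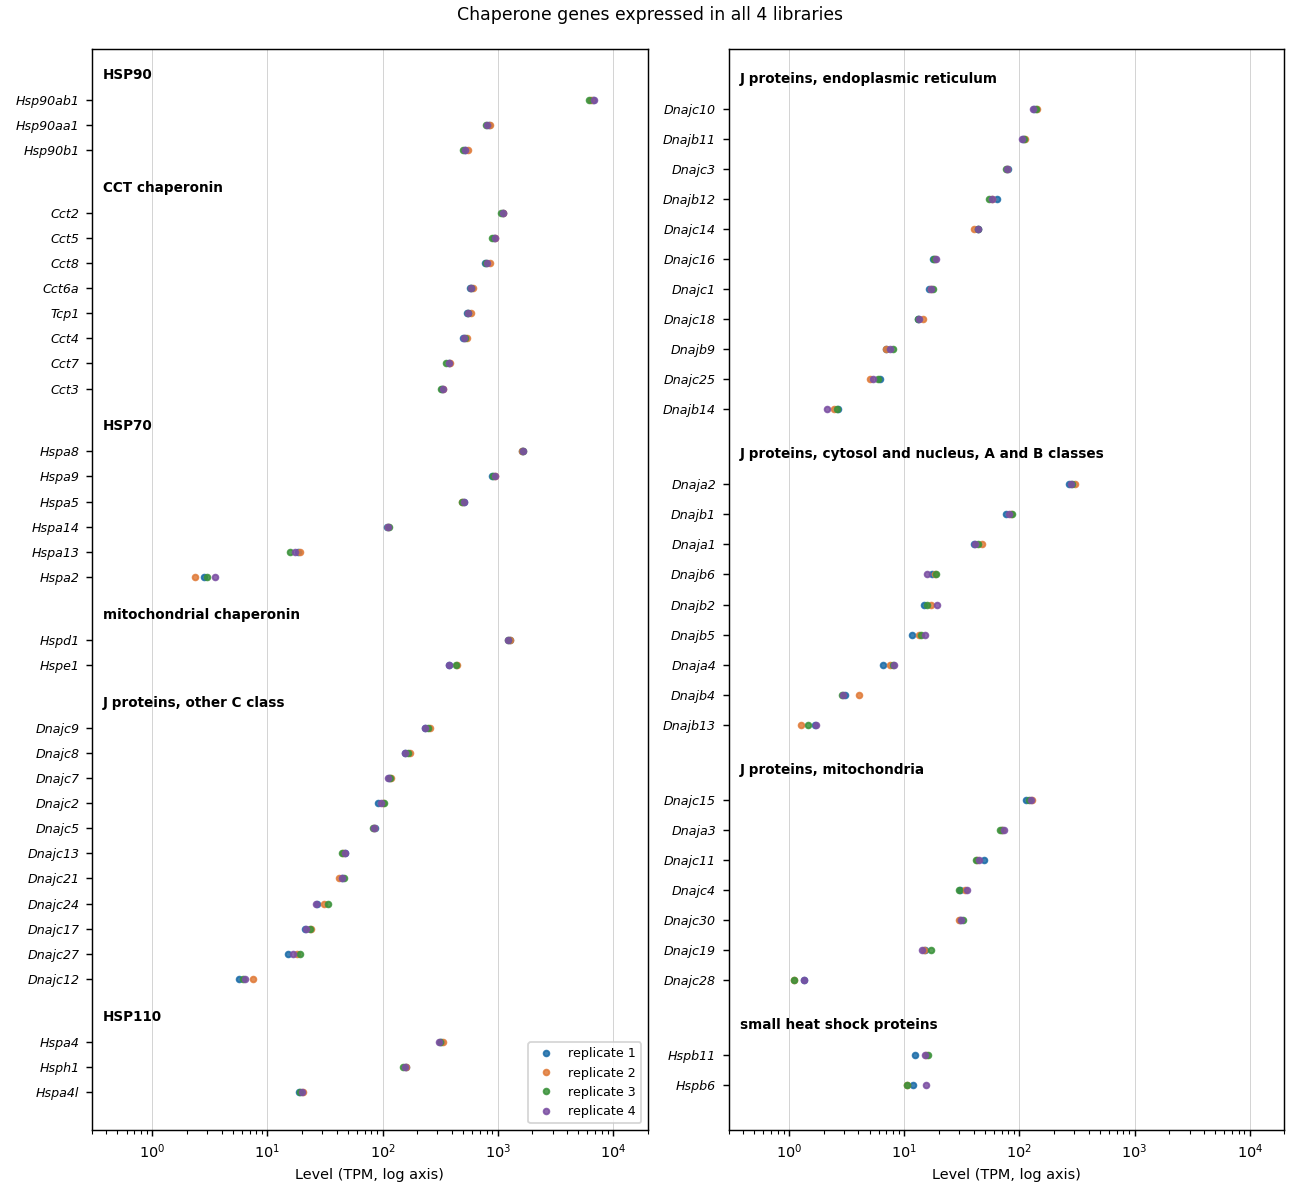
Level in TPM on a log axis for the 62 chaperone genes expressed in all 4 libraries, grouped by family and cell compartment, with 1 point per library coloured by replicate. The points of a gene mostly lie on top of each other, and the genes run from Hsp90ab1 at 6584 TPM on average down to Dnajc28 at 1.23.

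Among the families, the 3 HSP90 genes had the largest summed level at 7934 ± 299.8 TPM (SD, n = 4), followed by the CCT chaperonin at 5209 ± 123, the HSP70 genes at 3210.2 ± 37.3 and the mitochondrial chaperonin at 1659.8 ± 51.5. The 45 J proteins together came to 2151 ± 55.9. HSP110 genes summed to 494 ± 14.8 and the small heat shock proteins to 27.4 ± 2.51. HSP70 transcripts therefore exceeded all J protein transcripts by 1.52, 1.45, 1.47 and 1.54 times in replicates 1 to 4, and in 4 of 4 libraries.

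Within the HSP90 family the cytosolic pair was very unequal. Hsp90ab1, the constitutive form (chromosome 17, 45567775 to 45573271 of mm10, minus strand), stood at 6700, 6520, 6224 and 6892 TPM in replicates 1 to 4. It was the 7th most abundant of all genes, lowest in replicate 3 and highest in replicate 4. Hsp90aa1, the form known for induction by stress (chromosome 12, 110690605 to 110702728, minus strand), stood at 845, 857, 794 and 804, so the ranges of the pair did not come near each other. Hsp90ab1 was 7.99 ± 0.42 times as abundant. On the scale of log2(TPM + 1) the difference was 2.99 ± 0.07, positive in 4 of 4 libraries. In the exact sign-flip permutation test (two-sided), 2 of the 16 sign patterns were as extreme, the fewest that 4 libraries allow. The third member, Hsp90b1 of the endoplasmic reticulum, known as GRP94, lay at 525 ± 19.6.

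Near-identical copies bear on these counts, because the counting did not ask for fragments with more than 1 alignment. Of the 50-base windows in the principal transcript of Hsp90aa1, 58.5% also occurred in a transcript of another gene elsewhere in the genome, mainly the copies Gm12346, Gm5844 and Gm5511. For Hsp90ab1 the share was 4.49%. Gm12346 itself held 164 to 250 counts per library against 41958 to 67537 for Hsp90aa1. How many fragments of Hsp90aa1 went uncounted was not tested.

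Cytosolic HSP70 was represented almost wholly by its constitutive member. Hspa8, known as HSC70 (chromosome 9, 40800984 to 40810087, plus strand), stood at 1634, 1631, 1669 and 1673 TPM in replicates 1 to 4, with a coefficient of variation of 1.36% between libraries. The stress-inducible Hspa1b stood at 1.53, 1.51, 1.27 and 0.995, on 42 to 77 counts, and missed the threshold in replicate 4 alone. Its tandem neighbour Hspa1a was lower still, on 4 to 26 counts, and Hspa1l had 0 counts in all libraries, where 3 counts would be at most 0.0961 TPM. The ranges of Hspa8 and the inducible genes lay far apart.

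Hspa8 exceeded Hspa1b by 9.48 ± 0.18 on the log2(TPM + 1) scale (SD, n = 4), higher in 4 of 4 libraries. With 0.1 added in place of 1 the gap was 10.2 ± 0.29. The size of that gap depends on uncounted fragments on both sides: 74.8% of the windows of Hspa8, 62.3% of those of Hspa1b and 60.4% of those of Hspa1a recurred elsewhere. For Hspa1a and Hspa1b the other place is mainly the partner gene. For Hspa8 it is a set of 13 genes, led by Gm15459, which held 578 to 862 counts per library. Against Hsp90ab1, Hspa8 was 0.251 ± 0.012 times as abundant, and 0.379 times when each gene was divided by the length of its principal transcript in place of the summed exons.

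Other cytosolic HSP70 genes were lower. Hspa14, which sits on the ribosome and meets new chains, was at 112 ± 2.2 TPM, and Hspa2, best known from the testis, at 2.93 ± 0.48. The divergent members Hspa12a and Hspa12b were at or below 0.313 TPM in every library. Each organelle has its own HSP70, and both were abundant: Hspa9, or mortalin, of mitochondria stood at 897, 948, 903 and 948 in replicates 1 to 4, a mean of 924 ± 27.9, and Hspa5, or BiP, of the endoplasmic reticulum at 500.3 ± 10.6. A further reticulum member, Hspa13, was at 17.7 ± 1.5, 28.4 ± 2.29 times less than Hspa5.

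The HSP110 genes, which release nucleotide from HSP70, followed a fixed order. Hspa4 stood at 319, 334, 314 and 307 TPM in replicates 1 to 4 and Hsph1, also a target of heat shock factors, at 159, 159, 150.4 and 155, with no overlap. The ratio was 2.04 ± 0.06. It fell to 1.28 with principal transcript lengths, since the deposited exons of Hsph1 sum to 7266 bases and its principal transcript has 3802. Hspa4l was the lowest at 19.6 ± 0.79, 16.3 ± 0.74 times less than Hspa4.

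CCT, also called TRiC, folds actin and tubulin in a double ring in which each of 8 related subunits has its own place. All 8 subunit genes were above 100 TPM in every library, and the order of their levels was the same in all 4. Cct2 led at 1109, 1112, 1077 and 1103 TPM in replicates 1 to 4, then came Cct5 at 932 ± 27.3, Cct8 at 808 ± 33.8, Cct6a at 589 ± 15.5, Tcp1 at 559 ± 20.05, Cct4 at 517 ± 16.2 and Cct7 at 374 ± 11.7. Cct3 was lowest at 330, 334, 322 and 336. Only Cct6a and Tcp1 overlapped among neighbours in this order, and even there Cct6a was higher in 4 of 4 libraries.

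How far the subunits differed turned on the length used. With the deposited exon lengths the highest subunit was 3.33 ± 0.03 times the lowest (SD, n = 4), and the coefficient of variation across the 8 was 41.7% ± 0.63. Those lengths sum every annotated exon: 6370 bases for Cct3 and 6778 for Cct7, whose principal transcripts have 1977 and 2441 bases, against 2557 and 1959 for Cct2. With principal transcript lengths, an alternative chosen after the data were seen, the fold dropped to 1.66 ± 0.05 and the coefficient of variation to 19.5%. Counts scaled to library size without any length (CPM) gave 1.36 ± 0.03 and 11.99%. Cct3 remained the lowest subunit in CPM, at 613, while Cct7 at 738 was above Cct8, Cct4 and Cct6a. By principal length neither was lowest: Cct3 and Cct7 stood at 732 and 714 TPM, above Cct6a at 597 and Cct4 at 601, and the highest and lowest subunits became Cct2 at 987 and Cct6a.

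**Figure D2:**
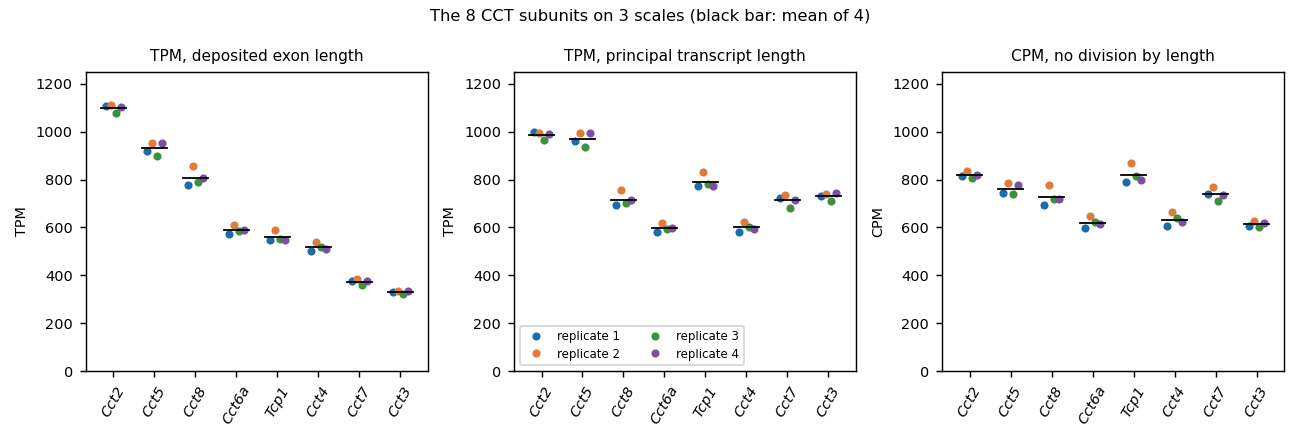
Level of the 8 CCT subunit genes in each library (points coloured by replicate, black bar the mean of 4) as TPM with the deposited exon length, as TPM with the principal transcript length and as CPM, all axes starting at 0. The subunits spread from 330 to 1100.3 TPM in the first panel and from 613 to 819 CPM in the last.

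The remaining names of this family were all but silent. Cct6b, a paralogue of Cct6a known from the testis, had 5, 21, 11 and 0 counts in replicates 1 to 4, and Cct6a exceeded it by 8.87 ± 0.27 on the log2(TPM + 1) scale. Cct8l1 had 0 counts, where 3 counts would be at most 0.121 TPM. Genes that work with CCT were all expressed, 9 of 9, beside 47.2% of protein-coding genes. The prefoldin subunits, which hand clients over, led with Pfdn1 at 216 ± 13.9 and Pfdn5 at 169 ± 5.28 TPM.

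In mitochondria, HSP60 (Hspd1) forms the folding chamber and HSP10 (Hspe1) its lid, and the genes lie head to head on chromosome 1. Hspd1 stood at 1279, 1283, 1221 and 1223 TPM in replicates 1 to 4, higher in replicates 1 and 2. Hspe1 stood at 375, 443, 438 and 377, higher in replicates 2 and 3. The ranges did not overlap. Hspd1 was 3.08 ± 0.29 times as abundant as Hspe1, and 1.77 times with principal transcript lengths. It was also above Hspa9, which passes imported chains on to it, by 1.36 ± 0.06 times, in 4 of 4 libraries. With principal transcript lengths the ratio was 1.15, but in CPM the difference turned to -0.14 on the log2 scale.

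Hspe1 was also among the least steady of the abundant members, with a coefficient of variation of 9.12% where counting error alone gives 1.03%. The replicates in which it was high, 2 and 3, were also the deepest, with 58696937 and 73819468 counts, and the part of depth in this was not tested. Of its windows 36.1% recurred elsewhere, mostly in pseudogenes, and 44.8% of those of Hspd1.

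A stretch where the genes meet is shown because it lies upstream of Hspe1 and of a listed start of Hspd1. It holds heat shock elements, the repeated units bound by heat shock factors. That Hspd1 start lies 216 bases from the Hspe1 start. A further Hspd1 start is listed within Hspe1, and the stretch lies after it. The 3-unit element was searched as GAA, TTC and GAA, each 2 bases from the next, on both strands, overlapping matches kept, in windows from 250 bases before to 50 after each start of the RefSeq promoter table (GRCm38.p6). Of the 82 members 67 had a window there. Capitals mark 2 overlapping matches, 84 to 89 bases before the Hspe1 start by their first base, and the stretch is chr1:55088039-55088096, plus strand:
Hspe1: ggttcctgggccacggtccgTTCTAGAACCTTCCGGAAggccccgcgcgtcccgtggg

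The same matches lie upstream of the Hspd1 start outside Hspe1 when read from its own strand. Windows of 4 members held the 3-unit element, those of Hspd1, Hspe1, Dnajb6 and Hsph1, and in Hsph1 it lay after the start. That is 5.97% of the 67, against 0.662% of the 27025 genes in the table. The same bases are counted in this share for both Hspd1 and Hspe1. The shorter 2-unit forms GAANNTTC and TTCNNGAA, which every 3-unit match contains, occurred for 20 of the 67 members, or 29.9%, against 17.0% of genes. They were present for the abundant Cct2 and Cct5 and for the scarce Hspa1a, Hspa1b and Hspb1 alike. A match is a description of letters and not a measured site.

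The J proteins set the pace and place of HSP70 work, and those of the cytosol and nucleus in the A and B classes were led by Dnaja2. It stood at 271, 304, 287 and 279 TPM in replicates 1 to 4. Dnajb1, the classic HSP40 that is induced with heat, followed at 75.9, 84.6, 86.2 and 82.0, lowest in replicate 1, and Dnaja1 at 40.01, 47.1, 43.4 and 41.2, highest in replicate 2. The ranges of these 3 genes did not overlap. Of 12 genes in the class 9 were expressed.

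Dnaja1 was 0.150 ± 0.004 times as abundant as its paralogue Dnaja2, lower in 4 of 4 libraries. Its deposited exons sum to 8629 bases, and 18.3% of its windows recurred elsewhere. With principal transcript lengths the ratio was 0.226. Dnaja4 lay at 7.57 ± 0.74 TPM, below Dnaja1 by 2.36 ± 0.13 on the log2(TPM + 1) scale. Dnajb4 was at 3.25 ± 0.56, far below its relative Dnajb1, with a difference of 4.30 ± 0.18 that became 2.79 with principal lengths.

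Dnajb6 and Dnajb2, which hold back protein aggregates, were the only pair of the 17 compared in which the order changed between libraries. Dnajb6 stood at 17.4, 18.5, 18.8 and 15.7 TPM in replicates 1 to 4 and Dnajb2 at 14.8, 17.2, 15.8 and 19.2, so the ranges overlapped. Dnajb6 was higher in 3 of 4, by 0.07 ± 0.24 on the log2(TPM + 1) scale (p = 0.625, exact sign-flip permutation test, two-sided). By principal length it was higher by 0.78, as its deposited exons of 6062 bases compare with a transcript of 1605. Of its windows 41.9% recurred elsewhere, in 8 genes.

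Dnajb6 is shown for its upstream heat shock element, in capitals, which lies 46 bases before the nearer start by its first base, chr5:29735832-29735884, plus strand:
Dnajb6: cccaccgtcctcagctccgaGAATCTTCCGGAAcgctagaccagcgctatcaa

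The germ cell members of this class were scarce. Dnajb7 and Dnajb8 had 0 counts, with 3 counts equal to at most 0.173 and 0.168 TPM. Dnajb3 had 10, 6, 58 and 17 counts in replicates 1 to 4, with replicate 3 the highest, and Dnajb13, a part of sperm tails, was just above the threshold at 1.54 ± 0.21 TPM. Dnajb5 lay at 13.6 ± 1.38.

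In the endoplasmic reticulum 11 of 12 J proteins were expressed, with a summed level of 491 ± 5.84 TPM. The ratio of Hspa5 to that sum was 1.04, 0.993, 0.998 and 1.05 in replicates 1 to 4. The sum takes in membrane members such as Dnajb12 and Dnajb14, so it is not the level of the partners of Hspa5 alone. Dnajc10, a reductase that helps to unfold proteins bound for destruction, led at 138 ± 5.05, with Dnajb11, a lumenal co-chaperone of BiP, at 109 ± 2.53 and Dnajc3, or P58IPK, at 78.4 ± 1.48. Dnajb9, a stress-induced repressor of the sensor IRE1, stayed at 6.96, 7.01, 7.99 and 7.55, and Dnajb11 was 14.8 ± 1.09 times as abundant. Of the membrane pair, Dnajb12 at 58.8 ± 3.61 was 24.0 ± 2.59 times above Dnajb14. Dnajc22 was the member not expressed, on 3 to 24 counts.

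Hspa5 and Hsp90b1, the main lumenal chaperones, lay close together. Hspa5 stood at 512, 493, 490 and 506 TPM in replicates 1 to 4, and Hsp90b1 at 521, 551, 504 and 523, highest in replicate 2. Their ranges overlapped, although Hspa5 was the lower in 4 of 4 libraries, by -0.07 ± 0.06 on the log2(TPM + 1) scale. With principal transcript lengths the difference was -0.38, and in counts without length it was 0.000595. The order therefore rests on the division by length.

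Both genes are known targets of the unfolded protein response, and their upstream stretches are shown for the endoplasmic reticulum stress element. It was searched as CCAAT, then 9 bases of any kind, then CCACG, on both strands. Of the 67 members with a window 3 held it, or 4.48%, against 0.137% of the 27025 genes, and all 3 encode lumenal proteins of the reticulum. Capitals mark each match, with the first of Hsp90b1 on its own strand and the second on the other.
Hspa5: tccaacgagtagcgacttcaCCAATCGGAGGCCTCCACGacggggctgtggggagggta
Hsp90b1: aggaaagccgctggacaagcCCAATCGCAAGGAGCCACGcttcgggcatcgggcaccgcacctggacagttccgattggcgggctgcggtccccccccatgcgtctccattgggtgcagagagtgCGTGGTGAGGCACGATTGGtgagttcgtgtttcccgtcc
Dnajc3: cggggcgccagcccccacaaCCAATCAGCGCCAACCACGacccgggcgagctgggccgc

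The 3 stretches are chr2:34772005-34772063 on the plus strand, chr10:86705513-86705676 on the minus strand and chr14:118937807-118937865 on the plus strand, all upstream of the listed start. Dnajb9 had no match in its window, which says only that these letters are not there. No member window held the element TTGCATCA of the C/EBP and ATF factors, which 1.03% of genes had, and the E-box CACGTG occurred for 8.96% of members and 8.09% of genes.

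All 7 mitochondrial J proteins were expressed. Dnajc15 stood at 113, 128, 121 and 125 TPM in replicates 1 to 4, lowest in replicate 1, and Dnaja3, or TID1, the partner of mortalin, at 70.9 ± 2.41, with Dnajc11 of the inner membrane's folds at 44.7 ± 3.05. Dnajc15 and Dnajc19 are paralogues that act at the import motor of the inner membrane, and Dnajc19 was at 15.3, 14.8, 17.0 and 14.4. By these values it was 0.126 ± 0.013 times as abundant as Dnajc15, without overlap. Length again entered: Dnajc19 had 776 to 1482 counts over 4027 exon bases, while Dnajc15 had 928 to 1700 over 648. With the principal transcript of Dnajc19, 659 bases long, the ratio was 0.772. Dnajc15 kept its 648 bases in that ratio, because its principal transcript of 6193 bases is longer than the deposited exons. In CPM, without any length, the difference was -0.34 on the log2 scale. Dnajc15 was thus the higher on each scale computed, by a margin that depends on the length. The ratio with 6193 bases was not computed. Of the windows of Dnajc19 32.0% recurred in its pseudogene.

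Among the other C class members 11 of 14 were expressed, several with tasks in the nucleus or on the ribosome. Dnajc9, a histone chaperone, led at 233, 257, 246 and 234 TPM in replicates 1 to 4, highest in replicates 2 and 3. Dnajc8, which associates with the spliceosome, followed at 164 ± 8.18, Dnajc7 at 115 ± 2.57 and Dnajc2, the J partner of Hspa14 on the ribosome, at 98.0 ± 5.06. Dnajc2 and Hspa14 thus lay within a narrow range of each other, at 91.1, 101, 102 and 97.4 against 109, 111, 114 and 113, and Hspa14 was the higher in each. Dnajc13 of endosomes was at 46.4 ± 1.29. Dnajc6, or auxilin, known from neurons, stayed below 1 TPM on 58 to 83 counts, and Dnajc5b and Dnajc5g had 0 counts, while the related Dnajc5 stood at 84.6 ± 0.89.

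Small heat shock proteins, which hold unfolded proteins without ATP, were mostly scarce or undetected. Of 8 genes, Hspb11, which is a part of the intraflagellar transport machinery in spite of its name, was at 14.9 ± 1.75 TPM and Hspb6 at 11.95, 10.6, 10.5 and 15.4 in replicates 1 to 4, highest in replicate 4. Hspb1, or HSP25, the member best known in stressed cells, had 0, 4, 7 and 0 counts, with 60.4% of its windows shared with copies. Hspb2, Hspb3 and Hspb8 had 0 counts, where 3 counts would be at most 0.285, 0.304 and 0.122 TPM, Hspb7 had 5 to 25 counts and Hspb9 a single count in replicate 3.

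Paralogues and partners were thus unequal in most cases, although Hspa5 over Hsp90b1 and Hspd1 over Hspa9 changed sign in CPM. In TPM with deposited lengths, the first-named gene was higher in all 4 libraries in 12 of the 17 pairs and the second in 4. For these 16 the exact sign-flip permutation test gave an adjusted p of 0.133 (Benjamini-Hochberg over the 17 pairs), the smallest this design reached, so no pair can pass 0.05 with 4 libraries. The widest gaps were 9.48 for Hspa8 over the inducible Hspa1b and 8.87 for Cct6a over Cct6b, known from the testis. Both second genes were scarce, and with a pseudocount of 0.1 these gaps were 10.2 ± 0.29 and 10.9 ± 1.19. Their size and order therefore depend on the pseudocount. An inducible partner did not always mean a wide gap. Hsp90ab1 was above Hsp90aa1 by 2.99, less than the 4.75 of Hspa5 over Hspa13. Pairs compare different transcripts within a library and say nothing about other cells.

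**Figure D3:**
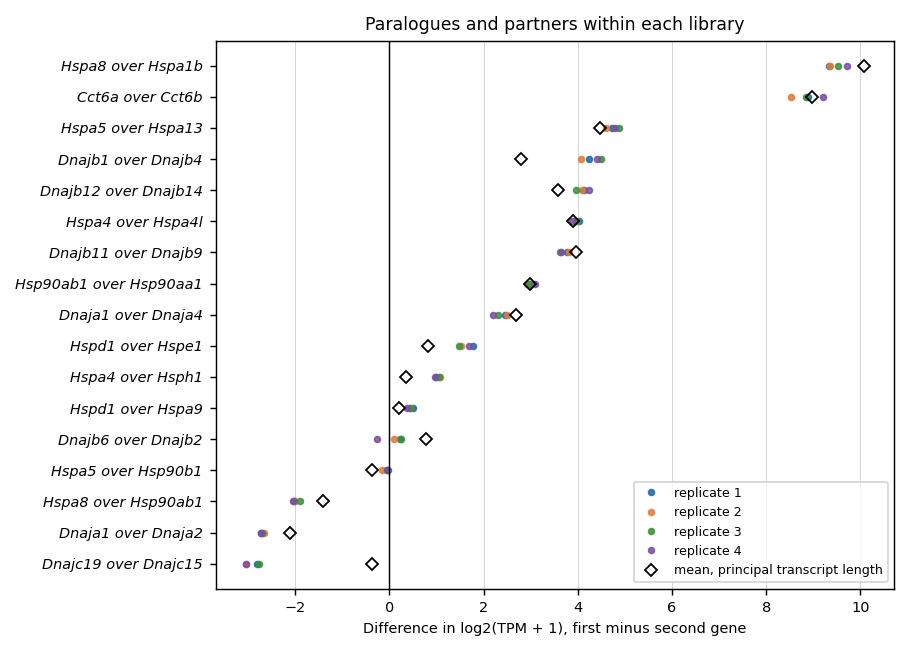
Difference in log2(TPM + 1) between the first and second gene of 17 pairs, with 1 point per library coloured by replicate and an open diamond for the mean with principal transcript lengths; the line marks 0. The points of Dnajb6 over Dnajb2 lie on both sides of the line, and those of Dnajc19 over Dnajc15 near -2.91, with the diamond at -0.37. For that diamond Dnajc15 kept its deposited length, as its principal transcript is longer.

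Some abundant members ordered the libraries as Xist did, without overlap. Hspd1, Hsp90aa1, Cct2, Cct7, Hspa4 and Hsph1 were higher in both of replicates 1 and 2 than in either of 3 and 4, and Hspa8 and Hspa14 were lower. Hsp90ab1, Hspe1, Hspa9, Hspa5 and Cct5 did not follow that order. The share of all genes that split the libraries in this way was not counted. The list is therefore not shown to be a trait of the chaperones. The differences were small beside those in Xist and Ddx3y, for Hspa8 1634 and 1631 against 1669 and 1673 TPM, and the part of the sex-linked difference in them was not tested.

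The members had a smaller coefficient of variation between libraries than all expressed genes, but nearly the same median biological coefficient of variation in edgeR. Over the 62 expressed members the median coefficient of variation was 4.31%, against 6.52% for all 11593 expressed genes, and 40 members lay below the latter. Their median level was also higher, 64.9 against 28.6 TPM, and its part in the smaller spread was not tested. In edgeR, which fits the spread against the level, 51 of 65 members tested had a dispersion below the trend, or 78.5%, against 66.0% of all genes. In 4 of the 62 expressed members 1 library lay apart from the other 3 by Dixon's rule, as it did in 5.07% of all expressed genes, and in 7 of the 73 members with any count, against 18.0% of all genes with one. The median biological coefficient of variation was 0.0732 for members and 0.0734 for all genes.

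Of the members with a mean of at least 10 TPM, the steadiest were Dnajc5, a synaptic vesicle chaperone also found outside neurons, at 1.05%, Hspa8 at 1.36%, Cct2 at 1.44%, Dnajc3 at 1.89% and Cct3 at 1.92%. For Dnajc5 counting error alone gives 1.03%. The widest were Hspb6 at 19.1%, Hspb11 at 11.8%, Dnajc24, which serves the making of diphthamide, at 11.5%, Dnajb2 at 11.4% and Dnajc27 at 10.4%, where counting error gives 2.70% to 4.76%. Replicate 1 was the lowest for Hspb11, Dnajb2 and Dnajc27, replicate 4 for Dnajc24 and replicate 3 for Hspb6, so no single library was low in all of them.

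**Figure D4:**
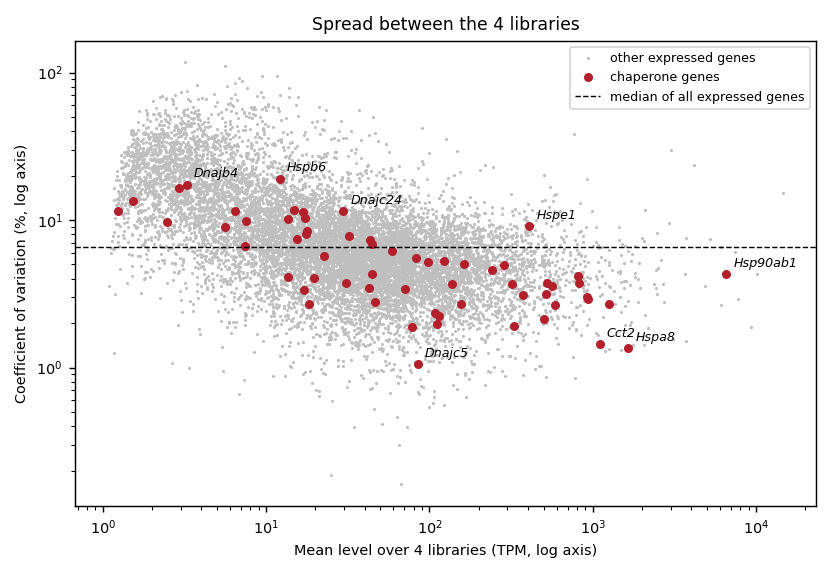
Coefficient of variation over the 4 libraries against mean level in TPM, both on log axes, for 11593 expressed genes, with the 62 chaperone genes as large red points and the median of all expressed genes, 6.52%, as a dashed line. Most chaperone genes above 100 TPM lie under the line, and Hspe1 at 9.12% lies above it.

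Genes outside the naming rule that work with these chaperones were taken from 6 lists of 65 genes. Beside 22.9% of all genes and 47.2% of protein-coding genes, 64 of the 65 were expressed. All 14 HSP90 co-chaperones were, led by Stip1, which bridges HSP70 and HSP90, at 717 ± 13.2 TPM and Ahsa1, the activator of the HSP90 ATPase, at 605 ± 23.2. So were all 13 HSP70 exchange factors and co-chaperones, led by Bag1 at 381 ± 25.2 and St13 at 259 ± 3.48. All 11 folding enzymes of the reticulum were expressed, with the lectin chaperone Calr at 885 ± 24.9 and the disulfide isomerase P4hb at 655 ± 14.7 leading, and all 8 genes of mitochondrial quality control, with the protease Lonp1 at 315 ± 24.4 and Trap1, the HSP90 of mitochondria, at 295 ± 5.39.

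Of 10 factors of the heat shock and unfolded protein responses 9 were expressed. Xbp1 led at 210.3 ± 16.4 TPM, and Hsf1, the main heat shock factor, stood at 174, 155, 147 and 163 in replicates 1 to 4, highest in replicate 1. Hsf5 was the exception, with 10 counts in all 4 libraries together. RNA levels of these factors do not show how active they were.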

How the data were processed

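The members and lists were chosen with earlier results of these data known. The deposited counts are whole fragments per gene from featureCounts 1.4.6-p4, run by the authors on reverse-stranded paired fragments with both ends aligned, against GENCODE M13 on mm10, per the file headers. The deposited length sums a gene's exons. Which aligner version was used is not given here.

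TPM was computed here from the counts and the deposited lengths. Symbols came from GENCODE M21 by identifier, and 224 of 50600 genes without one held at most 0.00963% of counts. The summed gene counts of the 4 libraries are given with the results, and 3 counts were taken as the limit a count of 0 allows, which covers counting error only. Chi-square per degree of freedom between libraries was 11.1 to 24.4 over 14052 genes, so no 2 libraries agreed within sampling noise.

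With 1 group there was no test between conditions. Pairs were tested with an exact sign-flip permutation test on log2(TPM + 1), and the spread was fitted with edgeR 4.0.16 (TMM, filterByExpr, intercept only, 12917 genes). Both were tested on simulated data. DESeq2 1.42.0 gave size factors for an alternative. The principal transcript is that marked by APPRIS in GENCODE M21, or the deposited length where that is shorter. With it, a gene whose length does not change has 0.687 times its TPM, a shift of -0.54 on the log2 scale. Levels of genes were therefore compared only within that scale, while the number expressed kept the threshold of 1 TPM. Windows of 50 bases were matched on both strands to transcripts of genes at other places. Named genes were the leading 3 of each family group, all of HSP90, HSP110 and the chaperonins, all pair members, all with 0 counts, the 5 steadiest and 5 least steady above 10 TPM and the leading 2 and unexpressed genes of each list. Others named were chosen after their values were seen.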

Additional observations from a re-analysis of the deposited data

Results flagged for a closer look

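In 8 of 102 sets of 4 values 1 library stood apart from the other 3, by a gap over the whole range above Dixon's critical value for 4 samples, which chance gives for about 1 in 20. Among the 62 expressed members there were 4, where 5.07% of all expressed genes had such a gap. They were Tcp1 at 589 TPM in replicate 2, Dnajc5 at 83.3 in replicate 3, Dnajc14 at 40.5 in replicate 2 and Dnajb4 at 4.09 in replicate 2. Dnajc5 differed there by less than 2 TPM from the rest, and Dnajb4 rested on 618 counts in replicate 2 against 342 to 550 elsewhere. Among the members below the threshold were Hspb7 at 0.715 TPM in replicate 1 on 25 counts, Hspa12a at 0.313 in replicate 4 on 27 counts and Hspb9 at 0.0636 in replicate 3 on 1 count. The pair Hspa5 over Hsp90b1 stood at -0.16 on the log2(TPM + 1) scale in replicate 2 and between -0.05 and -0.03 in the others.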

How the results depend on the processing

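Gene length moved the most values. The coefficient of variation across the CCT subunits was 41.7% with deposited lengths, 19.5% with principal transcript lengths and 11.99% in CPM. Without length 2 pair differences changed sign, Hspa5 over Hsp90b1 to 0.000595 and Hspd1 over Hspa9 to -0.14. No pair changed sign with a pseudocount of 0.1, any replicate left out, or principal lengths held to at most the deposited length. That limit kept Dnajc15 at 648 bases in place of 6193, and the sign of Dnajc19 over Dnajc15 without it was not computed. The members' share of TPM was 2.18% when scaled to protein-coding genes, 2.15% of counts, 2.03% with principal lengths, 1.41% without Hsp90ab1, and 2.06% to 2.09% with a replicate left out. The number expressed stayed between 62 and 63 with a replicate left out. It was 57 at a TPM of at least 5, 64 at a TPM of at least 0.5 and 63 at a CPM of at least 1. With principal lengths it was 60. There the threshold stayed at 1 TPM, although a gene of unchanged length has 0.687 times its TPM. Without a filter on low values 64 members lay below the median coefficient of variation, against 40. The principal lengths and the share without Hsp90ab1 were chosen after seeing the data. No paired analysis was possible because there is 1 group. Members at or below 3 counts are not detectable at this depth.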
